A study of Mus musculus with 60 samples.

Results

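The genes described are the conjugation enzymes of drug and xenobiotic metabolism, that is the UDP-glucuronosyltransferases (Ugt1a, Ugt2 and Ugt3a), the sulfotransferases (Sult) and the glutathione S-transferases, both cytosolic (Gst) and membrane-bound (Mgst). They were chosen by name, as every gene whose symbol, found through the RefSeq accession of its probe, fell in these families. The RefSeq table held 69 such genes, of which 59 had at least 1 probe among the 20018 named genes on the array. These 59 members had 81 probes, and the probe with the highest mean signal over all arrays stood for each gene.

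Conjugation is the second phase of the clearance of foreign compounds. Glucuronosyltransferases attach glucuronic acid from UDP-glucuronic acid, sulfotransferases attach a sulfonate group from the donor PAPS, and glutathione S-transferases couple electrophiles, including the diol epoxides formed from polycyclic aromatic hydrocarbons, to glutathione. Several members are known to be induced through the aryl hydrocarbon receptor (AhR), the oxidative stress factor Nrf2 or the nuclear receptors CAR and PXR, and liver is the main site of these reactions.

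RNA was taken from lung, liver and forestomach of 20 adult male MutaTMMouse (Muta Mouse) animals, a transgenic strain that carries a bacterial lacZ reporter for mutation, aged about 10 weeks and housed singly. The mice had received benzo(ghi)perylene (BghiP), a polycyclic aromatic hydrocarbon, in olive oil by daily gavage over 28 days at 6.25 (D1), 12.5 (D2) or 25 mg/kg-bw/day (D3), while the vehicle mice (D0) had olive oil alone, and the organs were collected 72 h after dosing ended. Each group held 5 animals, numbered 1 to 5 at D0, 6 to 10 at D1, 11 to 15 at D2 and 16 to 20 at D3, and 1 number was the same animal in all 3 organs. Each of the 60 arrays held the Cy5-labelled RNA of 1 organ of 1 mouse, taken from a random section, against Cy3-labelled universal reference RNA pooled from 11 mouse cell lines. The comparisons ask in which organ each enzyme was expressed and whether BghiP altered it.

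Values are log2 ratios of sample over reference after loess normalization within each array, so a ratio of 0 is a level equal to that in the reference pool, and ratios of different genes are not compared. Ratios of probes dim in both channels lie close to 0, while a probe dim in the sample and bright in the reference reads below 0. A member was tested in a tissue where its probe was well above background on at least 5 of the 20 arrays. That held for 34 members in lung, 46 in liver and 39 in forestomach, 47 in any tissue and 32 in every tissue, and no member was saturated. The other 12 passed nowhere, among them Sult1c1, Sult3a1, Sult3a2, Ugt2a1 and 5 members of the Sult2a family. Changes of at least 1.5-fold whose limma adjusted p did not exceed 0.05 were called.

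Markers of another organ were high on several arrays. The organs matched their labels, since hepatocyte markers (5 genes) averaged 7.21 to 8.47 in the 20 livers, alveolar type 2 markers (5 genes) 5.62 to 6.19 in the lungs and squamous markers (8 genes) 4.03 to 5.49 in the forestomachs. In the forestomachs, however, the mean of 7 glandular stomach markers ranged from 0.26 to 7.74 between mice, against 1.10 or less in lung and liver. The D0 lung of mouse 1 had a squamous marker mean of 4.15 with all 8 markers above background and a skeletal muscle marker mean of 5.08 with all 6 above background, the D3 lung of mouse 20 a hepatocyte marker mean of 4.88 with all 5 above background, and the D2 forestomach of mouse 15 a hepatocyte marker mean of 5.38. Hepatocyte markers ranged from 0.02 to 5.38 over the forestomachs, with 5.09 in mouse 10, 4.92 in mouse 7, 4.74 in mouse 19 and 4.23 in mouse 13. The D0 forestomach of mouse 2 had an alveolar type 2 marker mean of 4.12. Fat cell markers (5 genes) averaged 6.07 in the D0 forestomach of mouse 5, and in lung 4.94 in the D1 mouse 8, 4.56 in the D2 mouse 14 and 4.19 in the D3 mouse 20. In whole tissue, more cells of a type and more RNA per cell cannot be told apart.

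The 7 Ugt2b genes on the array lie together on chromosome 5, and their promoters are shown because these related genes were above background on 19 or 20 of the 20 liver arrays. RefSeq promoters on build GRCm38.p6 (250 bases before to 50 after each start) matched 51 of the 59 members, with 63 promoters. The 100 bases printed for each gene run 5′ to 3′ on the gene's strand, and capitals mark the pattern GTTANANNTTAAC, in which N is any base. It is the stretch of 13 bases with the most positions, 10, that were identical in all 7 promoters. The coordinates are chr5:86926504-86926603 (minus strand) for Ugt2b1, chr5:87140341-87140440 (minus) for Ugt2b5, chr5:86906938-86907037 (minus) for Ugt2b34, chr5:87000760-87000859 (plus) for Ugt2b35, chr5:87092556-87092655 (minus) for Ugt2b36, chr5:87254789-87254888 (minus) for Ugt2b37 and chr5:87424204-87424303 (minus) for Ugt2b38.
Ugt2b1: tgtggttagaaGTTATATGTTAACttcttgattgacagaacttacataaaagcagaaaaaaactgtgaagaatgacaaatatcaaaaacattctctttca
Ugt2b5: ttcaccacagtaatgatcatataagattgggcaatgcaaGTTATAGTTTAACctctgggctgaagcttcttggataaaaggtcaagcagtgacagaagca
Ugt2b34: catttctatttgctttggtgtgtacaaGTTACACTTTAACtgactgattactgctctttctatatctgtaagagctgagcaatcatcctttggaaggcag
Ugt2b35: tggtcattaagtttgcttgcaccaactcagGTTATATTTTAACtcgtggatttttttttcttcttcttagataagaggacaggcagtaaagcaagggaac
Ugt2b36: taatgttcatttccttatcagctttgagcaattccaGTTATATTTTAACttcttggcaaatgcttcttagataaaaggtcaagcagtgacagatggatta
Ugt2b37: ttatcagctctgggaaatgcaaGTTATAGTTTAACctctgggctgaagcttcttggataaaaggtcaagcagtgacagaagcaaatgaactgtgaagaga
Ugt2b38: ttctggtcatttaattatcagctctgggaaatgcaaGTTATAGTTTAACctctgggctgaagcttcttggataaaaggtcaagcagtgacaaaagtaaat

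The pattern was taken from these promoters, and a match is a description of letters, not of a bound factor. Searched on both strands, it occurred in 30 of 32851 promoters (0.0913%) and in 8 of the 63 member promoters (12.7%), those of the 7 Ugt2b genes and Ugt3a1. Counted from the start of transcription, its first base lay between -89 (Ugt2b1) and -61 (Ugt2b5) in the Ugt2b genes and at -130 in Ugt3a1. Ugt2b5, Ugt2b37 and Ugt2b38 shared a run of 62 identical bases that no other promoter in the table held. Their transcripts are close relatives too, and how much the probes of this family read each other's transcripts is unknown, since probe sequences were not used here.

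In vehicle mice most conjugation enzymes were highest in liver. Of the 47 members tested, 39 were higher in liver than in lung and 3 (Mgst2, Mgst3 and Sult2b1) were higher in lung, Mgst3 no longer without the D0 lung of mouse 1 and forestomachs of mice 2 and 3 (-0.93, adjusted p = 0.0527), while over all probes 44.3% differed, 19.0% towards liver and 25.3% towards lung. Liver exceeded forestomach for 32 members and forestomach exceeded liver for 10, where 39.2% of all probes differed, 18.2% and 21.0% in these directions. Forestomach exceeded lung for 19 members and lung exceeded forestomach for 7, against 33.3% of all probes, 14.5% and 18.7%. The median member was 3.22 higher on the log2 scale in liver than in lung, beside -0.06 for all probes. A member measured only because it was bright in liver had to differ, so the 32 members detected in every organ were also counted. Of those, 25 were higher in liver than in lung and 3 lower, compared with 23.2% and 27.7% of the 22013 probes detected everywhere, with a median of 2.24 beside -0.02. Against forestomach 19 of the 32 were higher in liver and 9 lower, compared with 21.8% and 23.9% of these probes.

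The highest D0 mean was in liver for 35 members, 32 of them called over both other organs. It was in forestomach for 11, 10 of them called over both. Gstm2 alone was highest in lung, and it was not called over both. These counts were not made over all probes. They also hold the 7 members that passed the filter in liver alone, whose highest organ was fixed by it. Differences of 16-fold or more towards liver were found for 19 members against lung (2.00% of all probes) and 18 against forestomach (2.04%). Among the 32 detected in every organ these were 8 (1.43% of probes detected everywhere) and 6 (1.51%). Liver arrays were on other slides than lung and forestomach arrays, so slide and organ cannot be told apart for liver. With the animal as a block, pairing the organs of each mouse, 42, 25 and 42 members differed for liver against lung, forestomach against lung and liver against forestomach, compared with 42, 26 and 42 unblocked. All probes differed in 44.6%, 33.7% and 39.5% of cases with this block.

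**Figure D1:**
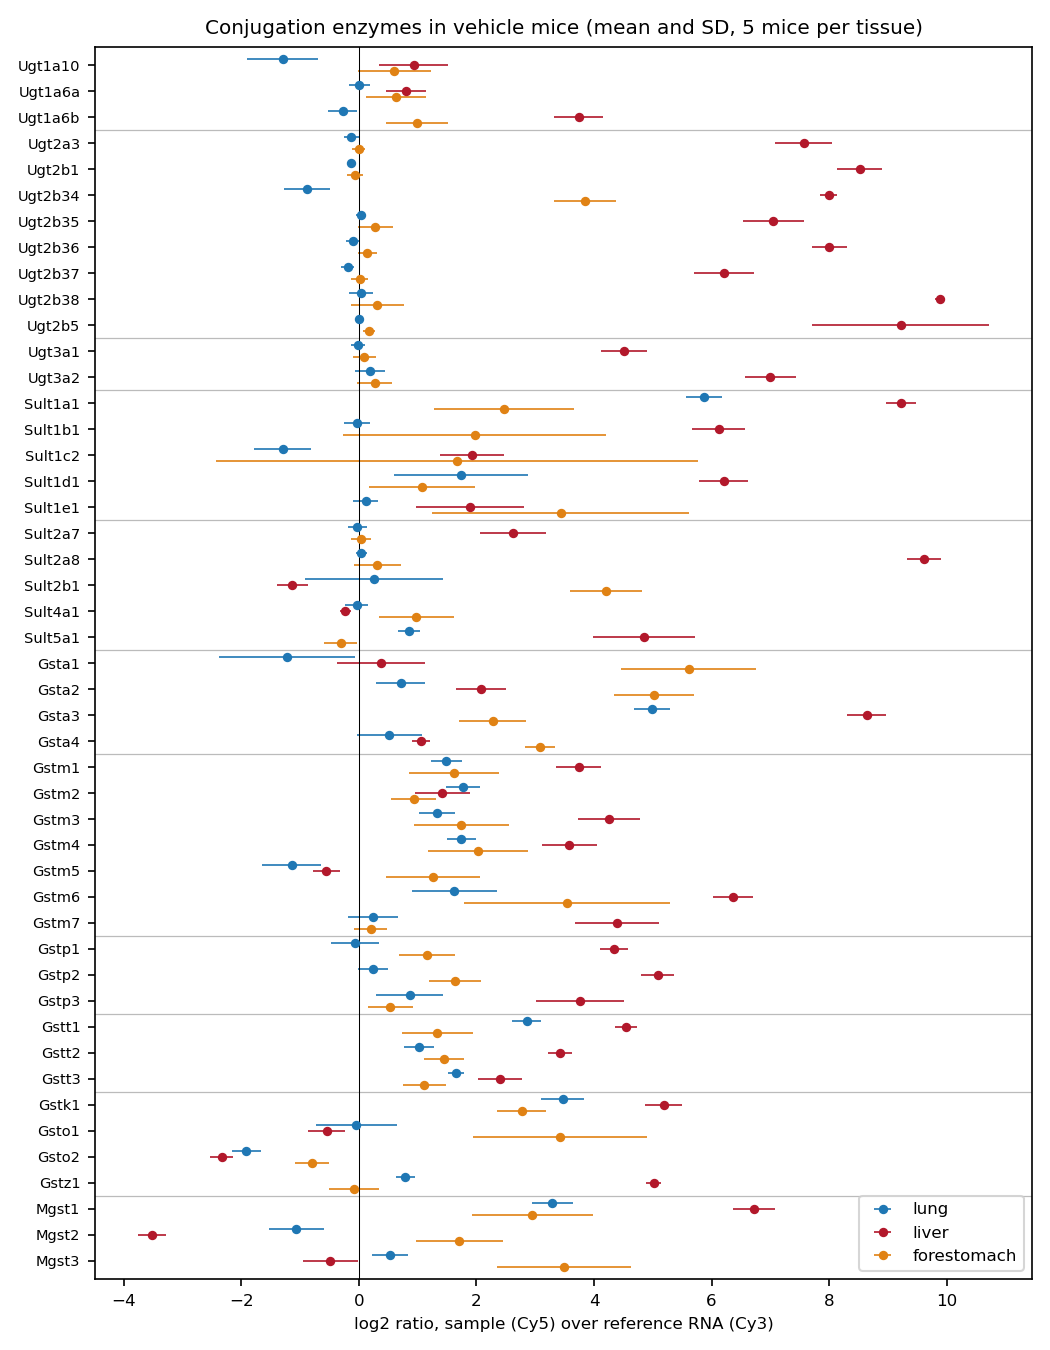
Mean log2 ratio of sample over reference RNA (horizontal axis) with SD bars for the 47 tested members in lung, liver and forestomach of the 5 vehicle mice. The Ugt2b genes and Sult2a8 lie far to the right in liver and near 0 elsewhere, apart from Ugt2b34, while Gsta1, Gsta2, Sult2b1, Gsto1, Mgst2 and Mgst3 were highest in forestomach.

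The Ugt2 family, which glucuronidates steroids, bile acids and many drugs, read highest in liver. None of the 8 tested members passed the filter on dim probes in lung, and Ugt2b1, Ugt2b5, Ugt2b36 and Ugt2b37 passed it in liver alone, so that their being higher in liver was fixed by the filter. In the D0 lungs 7 of them were not well above background on any array, Ugt2b38 being the other. Ugt2b38 read 9.84, 9.80, 9.88, 10.04 and 9.89 in the livers of mice 1 to 5 and -0.25 to 0.23 in their lungs. Every liver was above every lung, but only 1 of these lungs was above background for Ugt2b38, and no exact fold is given. Ugt2b5 read 9.89, 6.51, 9.91, 10.01 and 9.75 in the same livers, so that mouse 2 was low for this gene although it was not for Ugt2b38.

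Where a probe was not well above background on any array of a group, only a bound on the fold is given. It sets the mean signal of the bright group against the background limit of the dim group in the Cy5 channel, which is open to dye bias because dyes were not swapped. By this measure Ugt2b5 was at least 449.5-fold higher in liver than in lung. The bound was at least 183-fold for Ugt2b1, 98.3-fold for Ugt2a3, 59.8-fold for Ugt2b35 and 43.5-fold for Ugt2b37. The second probe of Ugt2b35 gave a log2 difference of 3.30. That value is not a bound and was taken without a filter on dim probes in lung, so it is not set against the bounds. Ugt2b35 and Ugt2a3 are named here after their values were seen. Some differences below rest on dim probes too, since Gsta1, Gsta2 and Gstp3 were above background in 4 of the 5 D0 lungs, Gstm7, Sult1d1 and Ugt1a6a in 3, Ugt1a10 and Sult1c2 in 2 and Sult1e1 in 1.

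Ugt2b34 was the member of the family above background on all 20 forestomach arrays, against 8 arrays for Ugt2b35, 6 for Ugt2b38 and 5 for Ugt2a3. It read 8.03, 7.82, 8.02, 8.21 and 7.90 in the D0 livers and 3.52, 4.31, 4.11, 3.09 and 4.22 in the forestomachs. In the lungs it was not well above background (-1.44 to -0.50). The 3 organs did not overlap: forestomach was at least 22.6-fold above lung (adjusted p = 9.45e-13) and 4.15 ± 0.46 (log2 difference ± SE of the limma fit, as from here on) below liver. Over all doses its forestomach level ran from 2.33 in mouse 18, with a glandular marker mean of 0.46, to 7.10 in mouse 9, with a mean of 7.74. The part of glandular tissue in this was not tested.

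Ugt3a1 and Ugt3a2, the Ugt3a enzymes, which use other sugars as donors, followed the same order. Ugt3a2 read 7.13, 6.42, 7.31, 7.44 and 6.67 in liver against 0.00 to 0.61 in lung and -0.03 to 0.59 in forestomach. The probe was above background in only 2 of these lungs and 2 of these forestomachs, and no exact fold is given. Ugt3a1 was at least 22.2-fold higher in liver than in lung, but it passed the filter in liver alone, so that this direction was fixed by the filter.

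The Ugt1a enzymes, which glucuronidate bilirubin, phenols and hydroxylated hydrocarbons, were less confined to liver. Their transcripts differ in the first exon and share the rest, and which transcripts a probe reads is unknown here. There were 3 genes with a tested probe, and Ugt1a1 had none. All 3 were higher in liver than in lung and in forestomach than in lung, but only Ugt1a6b was higher in liver than in forestomach. Ugt1a6b, a phenol enzyme and AhR target, read 4.20, 3.14, 3.78, 4.02 and 3.56 in liver, 1.29, 0.47, 0.44, 1.07 and 1.67 in forestomach and -0.56 to 0.06 in lung. Its liver level was 4.01 ± 0.18 above lung (adjusted p = 2.39e-26) and its forestomach level 1.26 ± 0.18 above lung, although its second probe put the latter at 0.09. The second probe of Ugt1a10 gave 0.27 for liver minus lung, where the brighter one gave 2.23, and -0.64 for liver minus forestomach. Ugt1a6a, its close relative, and Ugt1a10 differed between liver and forestomach by only 0.16 ± 0.19 (adjusted p = 0.48) and 0.33 ± 0.27 (adjusted p = 0.304).

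Sulfotransferases divided between the organs by gene. All 5 tested Sult1 members were higher in liver than in lung. Sult1a1, the main phenol sulfotransferase, read 9.61, 9.07, 8.94, 9.17 and 9.32 in liver, 5.63, 5.82, 5.59, 6.01 and 6.34 in lung and 3.31, 1.82, 1.00, 2.23 and 4.00 in forestomach. The order liver, lung, forestomach held without overlap, lung being 3.34 ± 0.41 (adjusted p = 3.01e-10) below liver and 3.40 ± 0.41 (adjusted p = 4.76e-10) above forestomach. Sult1d1, which acts on catecholamines and other small amines and phenols, was 4.47 ± 0.71 higher in liver than in lung. Sult1b1, a thyroid hormone and phenol enzyme, was at least 36.0-fold higher in liver than in lung.

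Sult2a8, a bile acid sulfotransferase, read 9.94, 9.32, 9.31, 9.68 and 9.80 in liver against -0.09 to 0.15 in lung and -0.21 to 0.75 in forestomach. It was at least 549.6-fold higher in liver than in lung. Sult2a8 passed the filter on dim probes in liver alone, so that its being higher in liver was fixed by the filter. Sult5a1, a poorly characterized member, was 4.00 ± 0.30 higher in liver than in lung. Sult2b1, the cholesterol sulfotransferase of stratified epithelium, had the opposite order: it read 4.38, 3.82, 3.35, 4.64 and 4.84 in forestomach and -1.42 to -0.71 in liver, where it was above background on 1 of 5 arrays and no exact fold is given. In lung it read 2.29 in mouse 1, the lung with squamous markers, and -0.35, 0.15, -0.10 and -0.68 in mice 2 to 5. Without that lung and the forestomachs of mice 2 and 3, forestomach exceeded lung by 4.87 ± 0.30 in place of 3.95 ± 0.33.

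Sult1e1, the estrogen sulfotransferase, was named after its values were seen. It read 4.29, 0.67, 1.75, 6.07 and 4.39 in forestomach, 3.11, 1.52, 2.30, 1.88 and 0.63 in liver and 0.49, 0.07, 0.01, 0.00 and 0.01 in lung. The lowest forestomach values were those of mice 2 and 3, the vehicle mice with high glandular markers (6.54 and 5.89). Forestomach and liver overlapped and were not called (adjusted p = 0.0842), but without those 2 forestomachs and the lung of mouse 1 forestomach was 3.03 ± 0.81 higher than liver (adjusted p = 0.00128).

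Alpha class glutathione transferases were divided in the same way. Gsta3, which acts on steroids and aflatoxin epoxide, read 9.00, 8.15, 8.65, 8.86 and 8.54 in liver, 4.61, 5.41, 4.85, 4.93 and 5.16 in lung and 2.37, 3.09, 1.49, 2.25 and 2.19 in forestomach. No organ overlapped another, and liver exceeded forestomach by 6.36 ± 0.21 (adjusted p = 5.57e-32). Gsta1 instead read 4.48, 6.89, 6.78, 5.23 and 4.67 in forestomach, -0.30, 1.58, 0.61, -0.07 and 0.08 in liver and 0.69, -1.63, -1.04, -1.96 and -2.17 in lung. Its forestomach level was 6.83 ± 0.53 above lung (adjusted p = 5.75e-16) and 5.23 ± 0.53 above liver. Gsta2 read 4.39, 6.05, 4.83, 5.35 and 4.52 in forestomach against 1.53 to 2.56 in liver and 0.24 to 1.39 in lung, and was 4.31 ± 0.58 above lung (adjusted p = 1.14e-08). Gsta4, which conjugates the lipid peroxidation product 4-hydroxynonenal, was 2.56 ± 0.19 (adjusted p = 1.93e-16) higher in forestomach than in lung.

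Gsta1 and Gsta2 are near-identical inducible enzymes, so that reads of one by the probe of the other cannot be told apart here. Their promoters on GRCm38.p6 are shown because the pair shared this forestomach pattern, at chr9:78230519-78230668 (plus strand) for Gsta1 and chr9:78347146-78347295 (minus) for Gsta2. Capitals mark a run of 29 bases that both hold, from -118 to -90 relative to the start in Gsta1, and that only Gm3776 held besides among 32851 promoters.
Gsta1: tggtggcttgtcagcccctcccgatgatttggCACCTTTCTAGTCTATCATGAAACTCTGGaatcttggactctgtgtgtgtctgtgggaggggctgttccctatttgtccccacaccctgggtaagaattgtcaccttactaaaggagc
Gsta2: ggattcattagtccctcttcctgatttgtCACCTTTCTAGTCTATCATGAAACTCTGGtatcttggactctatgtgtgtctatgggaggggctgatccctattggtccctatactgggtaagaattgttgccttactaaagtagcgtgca

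For the factors named above, the AhR core GCGTG was found on either strand in 12 of the 63 member promoters (19.0%), among them those of Gsta1 and Gsta2, and in 32.4% of all promoters. The antioxidant response core TGACNNNGC was found in 4 member promoters (6.35%), those of Gsta3, Gstm5, Gstm7 and Mgst1, and in 12.4% of all promoters. Absence of these letters from the window says nothing of sites elsewhere.

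The mu class (Gstm), which detoxifies many aromatic epoxides, was mostly higher in liver. Of 7 tested members, 6 were higher in liver than in lung, led by Gstm6 (4.74 ± 0.48, adjusted p = 1.78e-12) and Gstm7 (4.14 ± 0.24, adjusted p = 2.19e-21). Gstm1, a major liver enzyme of the class, read 3.95, 3.13, 3.60, 3.99 and 4.03 in liver, 1.12 to 1.74 in lung and 0.71 to 2.44 in forestomach, and was 2.25 ± 0.27 higher in liver than in lung. Gstm3 and Gstm4 were 2.93 ± 0.28 and 1.84 ± 0.27 higher in liver than in lung, and their second probes gave 4.63 and 3.80. The second probe of Gstm7 gave 3.23, and the other probes of Gstm6 gave 2.79 and 4.59. Gstm5, named after its values were seen, was higher in forestomach than in lung by 2.40 ± 0.24. Gstm2 was not higher in liver: it read 1.49 to 2.19 in lung, 0.85 to 1.95 in liver and 0.43 to 1.45 in forestomach. Lung and liver overlapped (difference -0.35 ± 0.21, adjusted p = 0.129), and its 3 tested probes did not give the same sign. Sequences within the class are close, and the probes may read more than 1 member.

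The pi class, which in mice is a major class in male liver, was higher in liver for all 3 members. Gstp1 read 4.23, 4.55, 4.29, 4.61 and 4.04 in liver, 1.54, 0.53, 1.49, 0.77 and 1.49 in forestomach and -0.50 to 0.60 in lung, and differed by 4.41 ± 0.22 between liver and lung (adjusted p = 1.09e-24). Gstp2, a near-identical neighbour of Gstp1, and Gstp3 were 4.84 ± 0.21 and 2.89 ± 0.29 higher in liver than in lung.

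Other cytosolic classes mostly followed liver. Gstz1, an enzyme of tyrosine breakdown, read 5.16, 4.81, 4.98, 5.08 and 5.03 in liver, 0.61 to 0.97 in lung and -0.54 to 0.45 in forestomach, and was 4.22 ± 0.15 higher in liver than in lung (adjusted p = 2.05e-31). Gstk1, the mitochondrial and peroxisomal kappa class enzyme, was 1.72 ± 0.29 higher in liver than in lung. The theta class enzymes Gstt1, Gstt2 and Gstt3, which handle small halogenated compounds, were higher in liver than in lung by 1.69 ± 0.23, 2.40 ± 0.16 and 0.76 ± 0.19. Gsto1, an omega class reductase, went the other way and read 2.48, 4.78, 5.17, 1.79 and 2.90 in forestomach, above every lung (-0.71 to 1.11) and every liver (-0.85 to -0.05). It was 3.47 ± 0.45 higher in forestomach than in lung (adjusted p = 5.36e-09), or 2.72 ± 0.45 without the lung of mouse 1, which read 1.11, and the forestomachs of mice 2 and 3.

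The membrane-bound enzymes split by gene. Mgst1, the abundant microsomal enzyme, read 6.90, 6.21, 6.63, 7.19 and 6.66 in liver and 2.83 to 3.70 in lung, a difference of 3.43 ± 0.36 (adjusted p = 2.94e-12). Mgst2, which has leukotriene C4 synthase activity, read 1.11, 2.93, 1.83, 1.44 and 1.24 in forestomach, -1.57 to -0.40 in lung and -3.75 to -3.12 in liver. Forestomach exceeded liver by 5.24 ± 0.33 (adjusted p = 5.64e-20), the reverse of Mgst1. Mgst3, another enzyme of the leukotriene branch, was 3.97 ± 0.44 higher in forestomach than in liver (adjusted p = 2.03e-11).

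The forestomach level of several members moved with the glandular stomach markers. By mouse, the marker mean was 0.95, 6.54, 5.89, 1.17 and 0.78 at D0, 1.58, 7.20, 6.14, 7.74 and 7.13 at D1, 0.62, 6.86, 6.69, 6.45 and 2.61 at D2 and 4.36, 0.26, 0.46, 6.41 and 4.09 at D3. At D1 4 of 5 mice were thus above 5, at D0 mice 2 and 3. Sult1c2, a gene named after its values were seen, read -0.87, 6.55, 5.68, -1.02 and -2.01 at D0, -0.36, 7.18, 5.61, 7.50 and 6.93 at D1, -1.40, 6.74, 5.98, 6.08 and -0.57 at D2 and 3.63, -1.04, -0.57, 5.94 and 2.49 at D3. It was high in the mice with high glandular markers at every dose. The part of glandular tissue in these levels was not tested apart from the values below.

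The 10 forestomachs with the highest glandular marker mean were also the 10 with the highest Sult1c2, Sult1b1, Gsta1, Gsto1, Mgst2 and Mgst3, and 9 of them were among the 10 highest for Gsta2, Sult1d1 and Ugt2a3. For Gsta3, Gsta4, Gstk1, Gsto2, Gstt1, Gstt3, Ugt2b34 and Ugt2b35 the number was 8. Unrelated orders would share 5 on average. Over the 39 members the number ran from 1 (Gstm4 and Mgst1) to 10 with a median of 6, compared with 3 to 9 and a median of 6 for the hepatocyte markers and 2 to 9 and a median of 5 for the squamous ones. The hepatocyte markers shared 9 of their 10 highest forestomachs with Gsta3 and 8 with Gsta2, Gsta4, Ugt2b35 and Ugt2b38. The squamous markers in turn shared 9 of their 10 highest forestomachs with Gstm6 and Sult2b1 and 8 with Gstm1, Gstm3, Gstp2, Gstp3, Sult1e1, Sult4a1, Ugt1a10, Ugt1a6a and Ugt1a6b. Without the D0 lung of mouse 1 and the D0 forestomachs of mice 2 and 3, the difference of Sult1c2 between forestomach and lung went from 2.97 ± 1.29 (adjusted p = 0.0493) to 0.01 ± 1.33 (adjusted p = 0.995). Gsta1, Gsta2, Sult2b1, Mgst2, Mgst3 and Gsto1 remained called over both lung and liver without these arrays, Gsta1 for example at 6.49 ± 0.56 over lung.

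**Figure D2:**
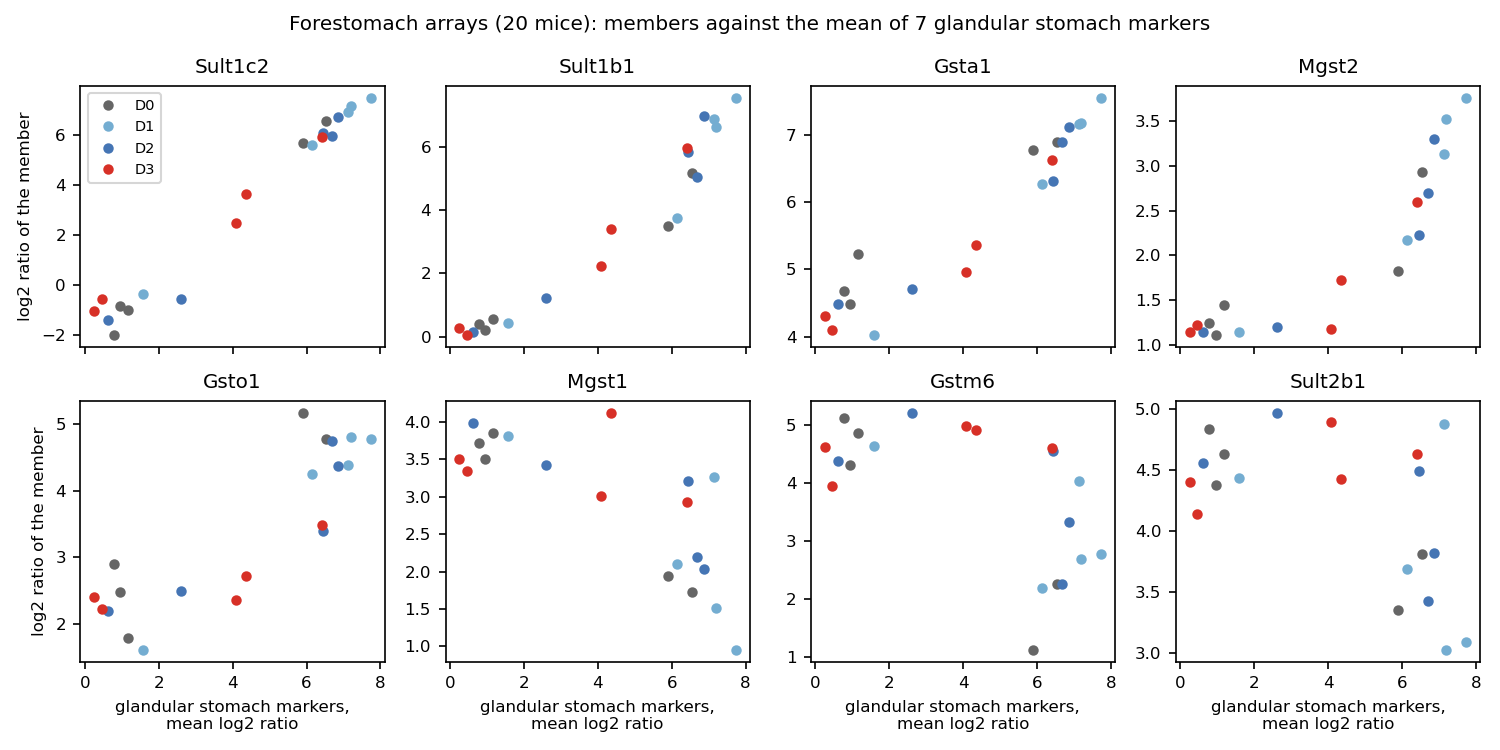
Log2 ratio of 8 members (vertical axes, on a scale of their own in each panel) against the mean log2 ratio of 7 glandular stomach markers (horizontal axes) in the 20 forestomachs, 1 point per mouse coloured by dose. Sult1c2 and Sult1b1 were high in the forestomachs with high marker means and low in those with low marker means, whatever the dose, while Gstm6 was lowest in forestomachs with high marker means.

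BghiP changed no member past the thresholds in any organ. At D1, D2 and D3 against D0 and in the slope on dose, 0 members were called, with or without the slide as a block. In the difference of the D3 change between organs 0 were called, with or without the mouse as a block. Over all probes 0% were called at D3 in each tissue without the block, and 0.0709% in lung, 0.0966% in liver and 0% in forestomach with it. The slope on dose called 0.239% of all liver probes, or 2.60% with the slide block, and 0.309% of lung probes with the block, but no member. At an unadjusted p under 0.05 and D3, limma gave 2 of 34 members in lung (4.80% of all probes), 4 of 46 in liver (12.2%) and 0 of 39 in forestomach (1.5%). With the slide block these were 7 (15.6%), 3 (17.9%) and 3 (6.39%).

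The median change of the members at D3 was 0.06 in lung, 0.07 in liver and 0.07 in forestomach. Leaving out single mice moved it between 0.01 and 0.13 in lung, -0.00357 and 0.15 in liver and -0.00358 and 0.16 in forestomach, and it was 0.13 in lung with processed signals. More members were higher than lower at D3, 24 of 34 in lung (52.8% of all probes), 32 of 46 in liver (49.9%) and 27 of 39 in forestomach (52.0%), all within changes that did not pass the test. The precision differed between organs. The 95% interval of the D3 change lay within 1 log2 unit of 0, that is within 2-fold either way, for 30 of 34 members in lung and 41 of 46 in liver but 22 of 39 in forestomach. The median half-width of the interval was 0.34, 0.39 and 0.82.

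**Figure D3:**
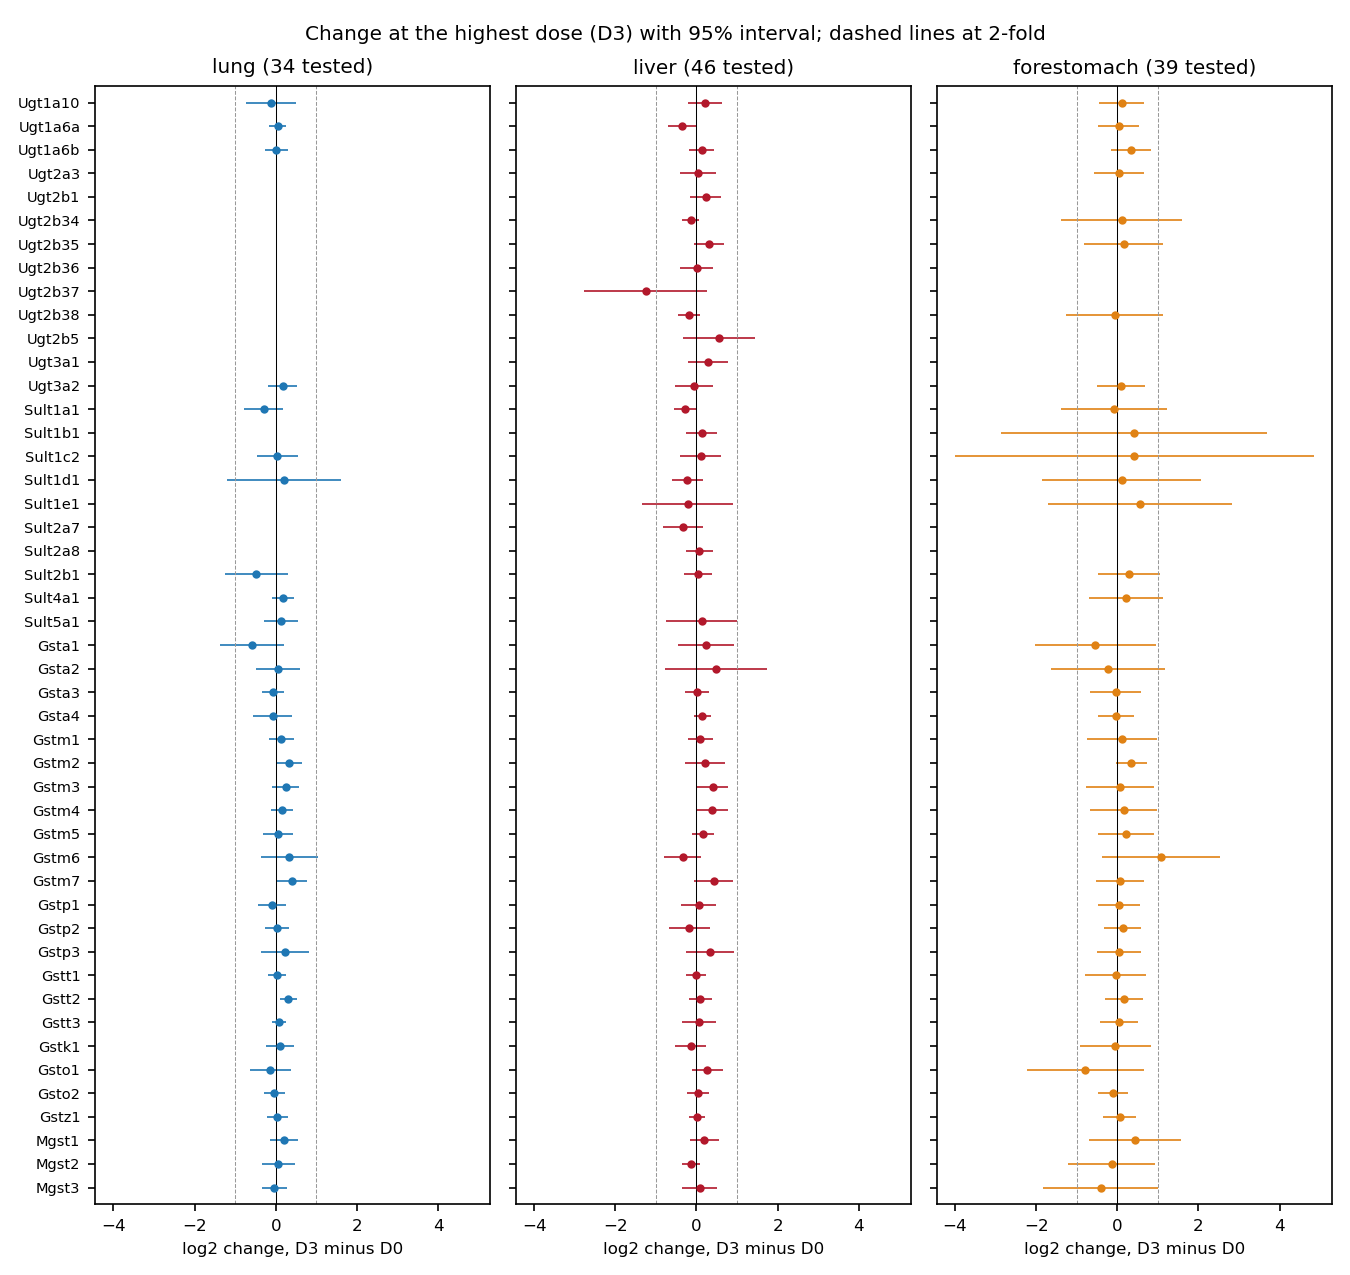
Log2 change at D3 against D0 (horizontal axis) with its 95% interval for each tested member, 34 in lung, 46 in liver and 39 in forestomach, with dashed lines at 2-fold. Most points lie near 0, and the intervals are widest in forestomach, where the median half-width was 0.82.

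The members known to be inducible through AhR, Nrf2, CAR or PXR were a list of 15 genes, of which 13 were on the array. None was called. At D3 12 of 13 were higher in liver (49.9% of all probes), with a median change of 0.19. In lung 8 of 12 were higher with a median of 0.05, and in forestomach 9 of 13 with a median of 0.07. In liver 3 had an unadjusted p under 0.05 (12.2% of all probes). The liver changes depended in part on the D0 mouse 2. Without that mouse Gsta3, Gstm1 and Ugt1a6b became -0.11, -0.05 and -0.02. Mgst1, Ugt2b35, Gstm3 and Gstm4 stayed higher without it, at 0.06, 0.10, 0.25 and 0.24. Ugt1a6b changed by 0.02 in lung (95% interval -0.26 to 0.29), by 0.13 in liver (-0.17 to 0.43) and by 0.34 in forestomach (-0.15 to 0.83). Gsta3 changed by 0.01 in liver (-0.29 to 0.31), Gstm1 by 0.10 (-0.20 to 0.40), Gsta4 by 0.14 (-0.06 to 0.35) and Mgst1 by 0.19 (-0.16 to 0.54). For these genes in liver the intervals left out a 2-fold rise. Gsta1 was measured with less precision, at 0.23 in liver (-0.46 to 0.92), -0.58 in lung (-1.36 to 0.21) and -0.54 in forestomach (-2.03 to 0.96). Gstp1 changed by 0.05 in liver (-0.37 to 0.48).

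In lung the smallest adjusted p-values appeared with the slide as a block, where slide k held 1 mouse of each dose. Gstm7 read 0.28, -0.13, -0.17, 0.41 and 0.86 at D0 and 0.52, 0.51, 0.39, 0.64 and 1.14 at D3. The groups overlapped, but D3 exceeded D0 on all 5 slides, by 0.24 to 0.65, with a change of 0.39 and an adjusted p of 0.0902 with the block. Its second probe changed by 0.11. Gstt2 read 0.96, 0.86, 0.74, 1.21 and 1.34 at D0 and 1.46, 1.34, 1.30, 1.33 and 1.23 at D3, higher on 4 of 5 slides, a change of 0.31 ± 0.10 (adjusted p = 0.873, with the block 0.115). Gstm2 changed by 0.32 in lung (adjusted p with the block 0.137).

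Sult1a1 was the member with the lowest block p in lung that went down. It read 5.63, 5.82, 5.59, 6.01 and 6.34 at D0 and 5.38, 5.63, 5.08, 5.51 and 6.31 at D3, lower on all 5 slides by 0.04 to 0.51. The change of -0.30 did not pass (adjusted p = 0.998, with the block 0.0965), and it was 0.13 with the scanner's processed signals and -0.03 on the second probe. Gsta1 (-0.58) and Sult2b1 (-0.48) had the other low D3 values in lung, and for both the D0 group held mouse 1, whose lung had squamous markers and read 0.69 for Gsta1 and 2.29 for Sult2b1. Without that mouse the changes were -0.10 and 0.02. On every slide the dose followed the column of the slide, so column and dose cannot be told apart.

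**Figure D4:**
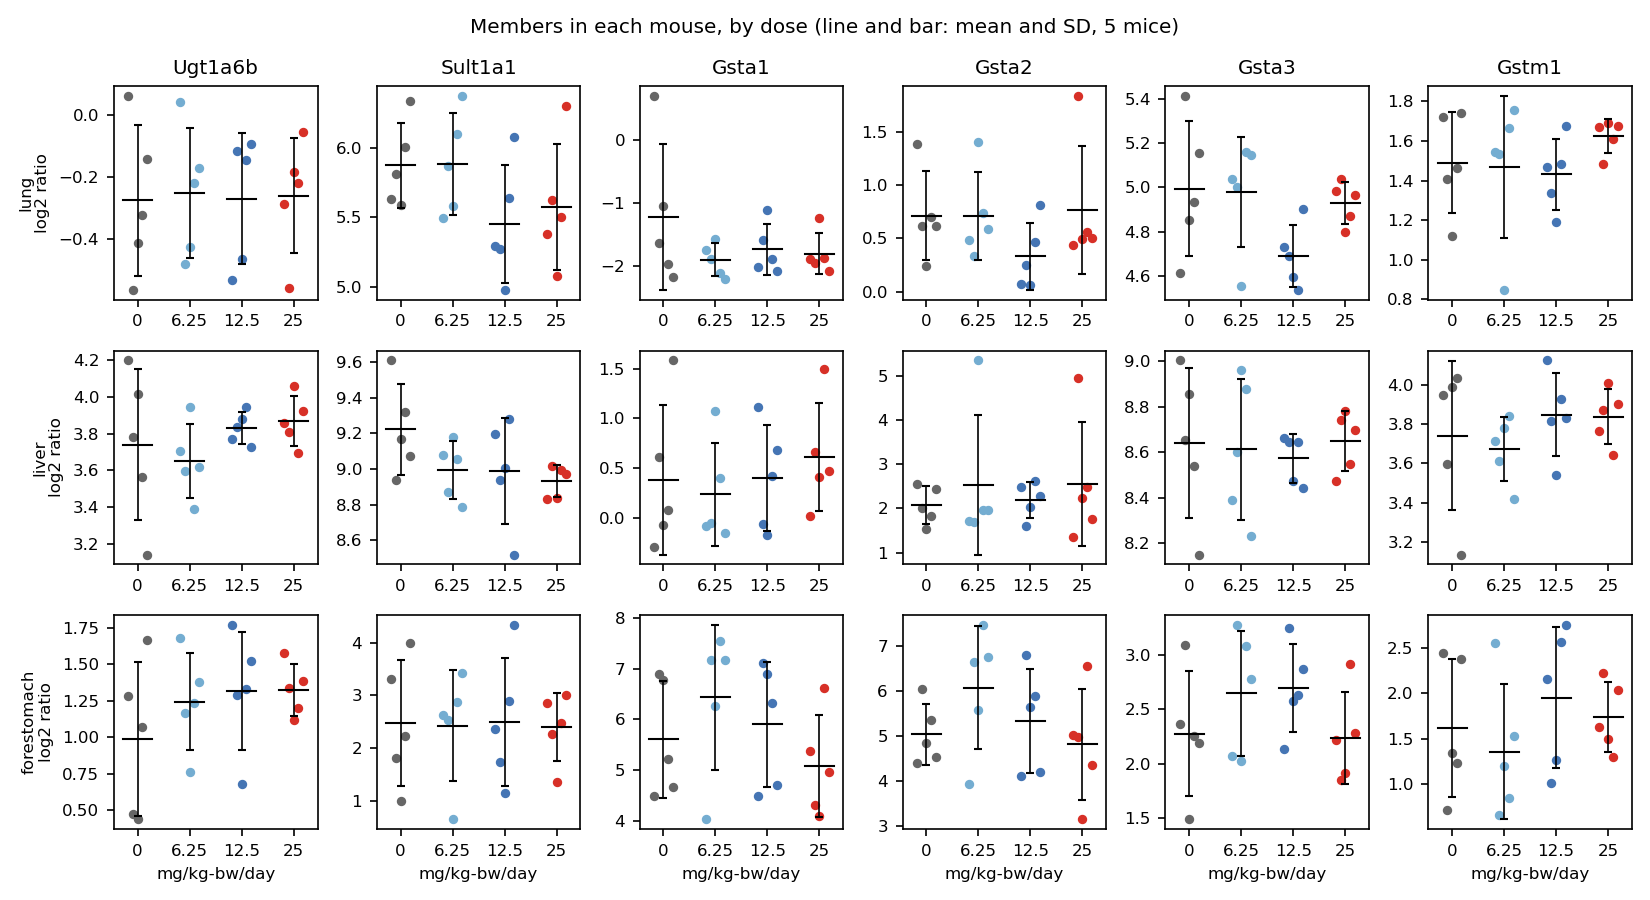
Log2 ratio (vertical axes, on a scale of their own in each panel) of Ugt1a6b, Sult1a1, Gsta1, Gsta2, Gsta3 and Gstm1 in each mouse against BghiP dose in mg/kg-bw/day (horizontal axes), by organ, with the mean and SD of 5 mice. Every dose overlaps D0 in each panel, and single mice stand away from their group, such as the D0 lung of mouse 1 for Gsta1, at 0.69, and the D1 liver of mouse 8 for Gsta2, at 5.35.

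In liver the members with the highest moderated t at D3 were Gstm3, Gstm4 and Gstm7, with changes of 0.40, 0.39 and 0.43, and Sult1a1 (-0.29, adjusted p = 0.385) and Ugt1a6a (-0.36) were among those with the lowest, none past the threshold. The second probes of Gstm3, Gstm4 and Gstm7 gave 0.04, 0.24 and 0.30. Over all members the changes ran from -1.26 for Ugt2b37 to 0.56 for Ugt2b5, which became -0.12 without the D0 mouse 2. Ugt1a6a read 0.85, 0.20, 1.01, 1.02 and 0.90 in the D0 livers and 0.69, 0.13, 0.76, 0.36 and 0.25 at D3, with overlap. The fitted change of Ugt2b37 in liver was -1.26, and it rested on mouse 18, which read 0.41 against 5.90 to 6.23 in the other 4 D3 livers. Without that mouse the change was -0.12. The 3 genes that share the 62-base promoter run did not share this value, since Ugt2b38 and Ugt2b5 did not stand apart in that liver.

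In forestomach at D1, 25 of 39 members were higher than at D0 (46.3% of all probes), with a median of 0.26, and 7 had an unadjusted p under 0.05 (9.37% of all probes), or 13 with the slide block (18.1%). None was called, the lowest adjusted p being 0.506, or 0.181 with the block. D1 was the dose with the most forestomachs high in glandular markers. With the marker mean as a covariate the D1 median was 0.21 with 30 of 39 higher, and 5 members (3.98% of all probes) had an unadjusted p under 0.05. At D2 the median was 0.27 with 35 of 39 higher (55.6%), and 0.27 with 27 of 39 higher with the covariate.

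Gstt3 at D1 in forestomach was the only member whose values did not overlap those of D0 in any organ and dose. Of all probes, 0.407% did not overlap at D1, 0.527% at D2 and 0.247% at D3 in forestomach, 0.300%, 0.503% and 0.799% in lung and 0.382%, 0.413% and 2.73% in liver. Gstt3 read 1.30, 1.38, 1.14, 0.48 and 1.26 at D0 and 1.43, 2.38, 1.40, 2.37 and 1.80 at D1, a change of 0.76 that was not called. Its highest D1 values were those of mice 7 and 9, with glandular marker means of 7.20 and 7.74. At D3 the forestomach members with the highest moderated t were Gstm6 (1.08 ± 0.70), Gstm2 (0.34) and Ugt1a6b (0.34), and those with the lowest were Gsto1 (-0.79), Gsta1 (-0.54) and Mgst3 (-0.41). Leaving out single mice moved these to between 0.48 and 1.47 for Gstm6, -1.19 and -0.35 for Gsto1, -0.93 and -0.22 for Gsta1 and -0.751 and 0.0382 for Mgst3. The last 3 genes shared all 10 of their highest forestomachs with the glandular markers. Gstm6 read 4.32, 2.26, 1.13, 4.87 and 5.11 at D0, low in the glandular mice 2 and 3, and 4.91, 4.62, 3.95, 4.61 and 4.99 at D3. The other probes of Gstm6 changed by 0.41 and 0.34 in forestomach at D3, and those of Gstm2 by 0.13 and -0.02.

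Genes that supply, undo or export conjugates gave the same result as the members. Of the listed genes for UDP-glucuronic acid supply (3), PAPS supply (4 of 5 on the array), glutathione supply (6), hydrolysis of conjugates (1 of 2), export (5) and the regulators of the family (8), 0 were called at any dose, and the same held for the AhR and Nrf2 targets. Among the genes for supply, hydrolysis, export and regulation the lowest p at D3 was that of Slc35d1, the transporter of UDP sugars into the endoplasmic reticulum, which changed by -0.58 ± 0.18 in liver (adjusted p = 0.221). The AhR targets outside the family had median D3 changes of -0.25 in lung (2 of 5 higher), -0.18 in liver (0 of 4) and 0.03 in forestomach (3 of 5), and Cyp1a1, the standard AhR response gene, changed by 0.14 ± 0.34 in lung (adjusted p = 0.998). Of the Nrf2 targets, with medians of -0.06, 0.05 and 0.08, Ephx1, the microsomal epoxide hydrolase, changed by 0.48 ± 0.11 in lung (adjusted p = 0.504).

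Gsta2 stood apart in 2 animals of different doses, which was seen after its values were examined. In liver it read 5.35 in mouse 8 (D1) and 4.94 in mouse 17 (D3), and 1.36 to 2.62 in the other 18 mice. In lung the same animals read 1.40 and 1.84, where mouse 1 read 1.39 and the rest 0.06 to 0.81. Lung and liver of an animal were on different slides. In the forestomach mice 8 and 17 read 5.57 and 4.98, within the range of all mice (3.14 to 7.46), and Gsta1 did not stand apart in either animal.

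**Figure D5:**
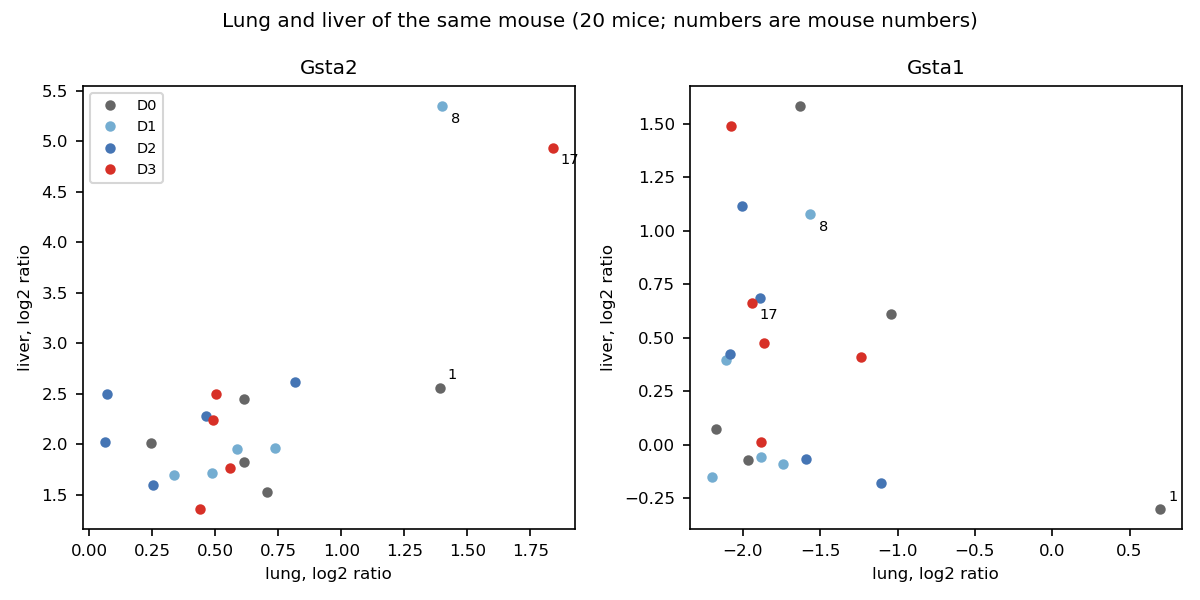
Log2 ratio in liver (vertical axes) against that in lung (horizontal axes) of the same mouse for Gsta2 and Gsta1, 20 mice coloured by dose, with mice 1, 8 and 17 labelled. For Gsta2 mice 8 and 17 lie apart in liver, at 5.35 and 4.94, and were among the highest in lung.

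Some arrays of other organs with high hepatocyte markers read high for liver enzymes. In lung, Ugt2b38 read 3.22, Ugt2b5 2.61, Sult2a8 2.41 and Ugt2b36 2.09 in the D3 mouse 20, which carried the hepatocyte markers, against -0.27 to 0.37 in the other 19 lungs. In forestomach, the D2 mouse 15 with a hepatocyte marker mean of 5.38 read 4.01 for Ugt2b38 and 1.98 for Ugt3a2. Ugt2b38 was lower in the forestomachs of mice 10, 7 and 19, at 1.36, 0.77 and 1.35, although their marker means were 5.09, 4.92 and 4.74. The part of hepatocyte RNA in these values was not tested. The D3 results in lung gave 0 calls among members without mice 1 and 20 as well.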

How the data were processed

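Lung, liver and forestomach RNA of 20 mice was hybridized on 60 two-colour Agilent arrays (per the labels, sample in Cy5 and reference in Cy3, without dye swaps). The sample labels gave groups and mouse numbers. The deposited scanner files hold median signal intensity, background intensity and processed signal intensity per spot. Per the file headers the program was Feature Extraction 10.7.3.1. The authors also deposited a table of log2 ratios, whose columns correlated with the ratios computed here at 0.991 to 0.999. Each array had 62976 spots, 3671 of them controls, which were left out, and 0.460% of values carried an outlier flag and were left out.

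Median signals without background subtraction were normalized by loess within arrays, as in the authors' methods, in limma 3.58.1 (R 4.3.3), and spots of 1 probe were averaged. Tests covered all 31022 lung, 25893 liver or 25070 forestomach probes whose Cy5 signal was well above background on 5 or more of 20 arrays, or the 33255 passing in any tissue, with lmFit and eBayes and Benjamini-Hochberg adjustment over all of them. By array, 34.9% to 58.6% of probes in lung, 36.3% to 48.3% in liver and 21.3% to 53.3% in forestomach were well above background. The number of arrays limits the precision. Each dose was tested against D0 per tissue, and tissue differences were tested among D0 groups in a model of all 60 arrays. Two-sided tests were used, and p-values measure the spread between arrays of different mice. That spread also holds differences of section, array and, without the slide block, slide. Steps were tested on simulated data.

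Lung and forestomach arrays shared 5 slides, each with 1 array of every dose and both tissues, so the row of a slide and these tissues cannot be told apart. Mouse numbers pair the tissues per the labels. Deviations of the same mouse correlated at a median of 0.07 for lung with liver, 0.27 for lung with forestomach and 0.01 for forestomach with liver. Lung and forestomach of a mouse were on the same slide, so animal and slide cannot be told apart for that pair. Alternatives were the slide or mouse as a block, processed signals, normexp, Aquantile, the deposited log2 ratios, no filter on dim probes, and leaving out single mice or arrays. Genes with full statistics were, in each subfamily, the 3 members with the largest range over tissues, a fixed set of well-known members, and the 3 highest and 3 lowest at D3 in each tissue. The members and lists were chosen with earlier results of these data known. Lists of markers for 10 cell types were also read, and no gene of any was called for dose. The 10 family genes without a probe were not analysed here.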

Additional observations from a re-analysis of the deposited data

Results flagged for a closer look

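Within single groups of 5 mice, the highest or lowest value was searched for a gap to its neighbour that was large against the group's range, over 400 sets of 1 named member, organ and dose. The search picked 25 sets, where chance gives about 1 in 20, that is 20.

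In lung these were Sult2b1 in the D0 mouse 1 (2.29), the lung with squamous markers, and in the D1 mouse 10 (0.33), Ugt3a2 in the D3 mouse 20 (1.17), the lung with hepatocyte markers, Gsta2 and Mgst1 in the D3 mouse 17 (1.84 and 3.21), Gsta1 in the D3 mouse 18 (-1.23), and Gsta3 and Gstm1 in the D1 mouse 8 (4.55 and 0.85), the lung with the highest fat cell markers (4.94).

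In liver they were Gsta2 in the D1 mouse 8 (5.35), Ugt2b5 in the D0 mouse 2 (6.51), Ugt2b37 in the D3 mouse 18 (0.41), Ugt2b34 in the D3 mouse 16 (7.62), Ugt2b1 in the D1 mouse 9 (9.24), Ugt1a6a in the D0 mouse 2 (0.20), Sult1b1 in the D2 mouse 14 (5.78), Sult5a1 in the D1 mouse 6 (3.66), Gstm4 in the D2 mouse 13 (3.27) and Gstt1 in the D1 mouse 7 (4.15). The low values of Ugt2b5 and Ugt2b37 were not shared by the related Ugt2b38 in the same liver.

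In forestomach they were Ugt2b38 and Ugt3a2 in the D2 mouse 15 (4.01 and 1.98), the array with the highest hepatocyte markers, Ugt2b38 in the D3 mouse 19 (1.35), Ugt3a2 in the D1 mouse 10 (0.75), Gsto1 in the D1 mouse 6 (1.61), the D1 mouse with the lowest glandular markers (1.58), Gstt1 in the D0 mouse 2 (2.39), the forestomach with alveolar type 2 markers, and Gstt3 in the D0 mouse 4 (0.48).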

How the results depend on the processing

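No member was called for dose under any alternative run. Counts at an unadjusted p under 0.05 moved with the slide as a block, at D3 from 2, 4 and 0 to 7, 3 and 3 in lung, liver and forestomach and at D1 in forestomach from 7 to 13. The D0 counts of members that differed were 42, 26 and 42 for liver against lung, forestomach against lung and liver against forestomach. They were 42, 25 and 42 with the mouse as a replicate block. When single mice were left out they were 38 to 39, 24 to 27 and 42 to 43. Without the lung of mouse 1 and the forestomachs of mice 2 and 3 they were 42, 27 and 44. With the slide as a random block liver against lung gave 38, and as a fixed block forestomach against lung gave 25. Counted as probes, over all 65 tested probes of the members, 57, 35 and 58 probes differed. Without the 3 arrays the D0 difference of Gstm2 between forestomach and lung became -0.56 (adjusted p = 0.0503). At D3, none of these changes being called, Sult1a1 in lung became 0.13 with processed signals, Mgst3 in forestomach ran from -0.751 to 0.0382 and Sult2b1 in lung from -0.719 to 0.0237 when single mice were left out, and the median change in lung became 0.13 with processed signals. The median in liver ran from -0.00357 without mouse 2 to 0.15 without mouse 1. The cause of these shifts was not tested. Aquantile between arrays leaves the ratio within an array as it is, so its values are equal by construction. The spread between mice was widest in forestomach, where the median half-width of the D3 interval was 0.82, against 0.34 in lung and 0.39 in liver.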
